A study of Mus musculus with 20 samples.

Results

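Endothelial cells of the mouse soleus, a hind limb muscle rich in oxidative fibres, were compared with and without the transcription factor gene Atf4. The comparison rests on 10 of the 20 libraries of the series, chosen by title alone: 5 titled as oxidative muscle endothelium of Atf4-/- mice, called Atf4 ECKO (endothelial cell knockout) here, and 5 titled as oxidative muscle endothelium of wild type mice. The mice of both groups were C57BL/6N and received 1 mg tamoxifen intraperitoneally each day for 5 days from the age of 8 to 10 weeks, then at least 7 days without it. Wild type mice were littermates without Cre, so tamoxifen was shared by both groups and Cre was not. The soleus was dissociated, CD31+ CD45- cells were taken by sorting, and their polyadenylated RNA was sequenced. The Cre driver, the deleted part of Atf4, the sex of the mice and the number of mice per library are not given in the sources used here, and a p-value below therefore measures only the spread between libraries, which may be technical. The other 10 libraries, from the extensor digitorum longus (glycolytic muscle) of the same genotypes in 2 groups of 5, entered only where a difference between muscles was tested.

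Levels are given as CPM, estimated counts per 1000000 of library size. Library size was the counts of the tested genes times a TMM factor, a correction for RNA composition. That factor was 0.887 to 0.947 in wild type and 1.00 to 1.04 in ECKO libraries, so the scaling differed by genotype. Values per library follow the order of library numbers 1 to 5, a group value is the mean ± SD of 5 libraries, and a log2 fold change (ECKO over wild type) stands with its SE. The 10 libraries held 8495672 to 21061644 estimated counts. The 16 pan-endothelial markers summed to 12772 to 13525 CPM in wild type and 14340.4 to 14611 CPM in ECKO libraries, and the 12 lymphocyte markers did not pass the filter on low counts. Other RNA moved with genotype. The 16 myeloid markers summed to 371 to 479 CPM in wild type and 114, 106, 103, 69.2 and 53.1 CPM in ECKO libraries, and all 16 were lower. Erythrocyte markers, the most abundant RNA of another cell type, summed to 4402 to 6753 CPM in wild type and 2506 to 4278 CPM in ECKO libraries, and 5 of 6 tested were lower. Markers of muscle fibres summed to 139.9 to 276 CPM in wild type and 261 to 352 CPM in ECKO libraries, and those of pericytes and smooth muscle to 655 to 767 and 861 to 1319 CPM. Summed Y-linked RNA (4 genes) lay at 107 to 118 CPM in wild type and at 64.6, 65.6, 32.2, 0.932 and 1.10 CPM in ECKO libraries, while Xist, the RNA that silences an X chromosome in female cells, rose from at most 0.274 CPM to 18.6, 18, 43.8, 81.5 and 76.2 CPM. ECKO libraries 1 to 3 thus held RNA of both sexes, so a library there may not be 1 animal or animals of 1 sex. Libraries 1 and 2 stood together, libraries 4 and 5 stood together, and library 3 lay between them, also for fibroblast markers (66.5, 68.2, 256, 489 and 475 CPM, against 155 to 391 CPM in wild type) and on the second principal component (15.4% of the variance, against 49.8% for the first, which separated the genotypes). Sex-linked RNA and genotype cannot be told apart by this design. Because of the steps between ECKO libraries, counts are also given with libraries 1 to 3 alone and 4 and 5 alone. Both sets held Xist and no wild type library held more than 0.274 CPM, so this split does not separate sex from genotype.

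**Figure D1:**
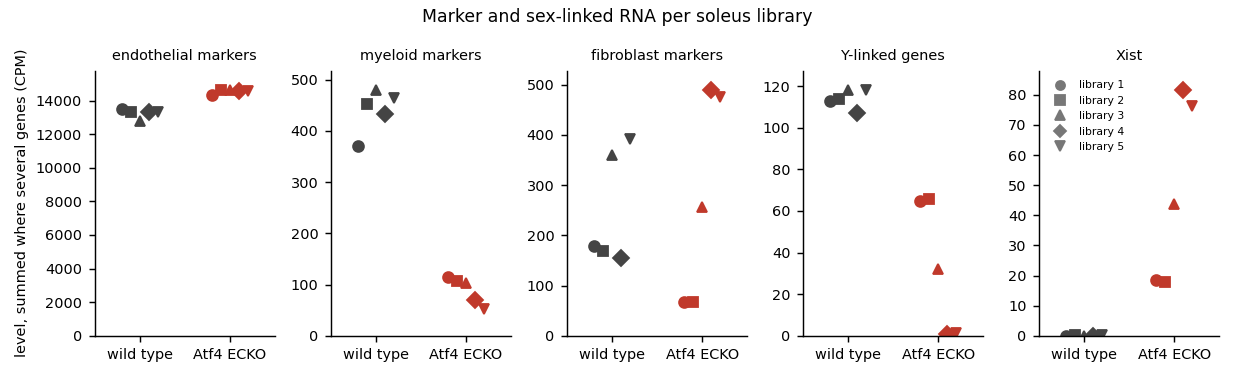
Level in CPM of endothelial, myeloid and fibroblast markers, of Y-linked genes (each summed) and of Xist in the 10 soleus libraries, wild type in grey and Atf4 ECKO in red; marker shapes give the library number within a group. Endothelial markers lie within a narrow range in each genotype and are higher in every ECKO library, while myeloid markers are lower in every ECKO library. ECKO libraries 1 and 2, 3, and 4 and 5 form steps for fibroblast and sex-linked RNA.

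ATF4 is the transcription factor at the centre of the integrated stress response. When amino acids run short, proteins misfold in the endoplasmic reticulum, heme is lacking or mitochondria are disturbed, kinases phosphorylate the translation factor eIF2α, bulk protein synthesis slows, and translation of the Atf4 mRNA increases. ATF4 then pairs with C/EBP proteins on DNA and switches on genes for amino acid synthesis, amino acid import, tRNA charging and redox defence, together with the brakes that end the response. The series title ties ATF3 and ATF4 in muscle endothelium to the vessel growth that follows exercise. ATF3 is a related bZIP factor and a known target of ATF4.

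Promoters were read for letters of the composite C/EBP-ATF element to which ATF4 is known to bind. The motif searched was TGATGCAA, which reads TTGCATCA on the other strand, on both strands of the RefSeq window from 250 bases before to 50 after the start of each gene (GRCm38.p6). Of 10245 tested genes with a window, 74 (0.722%) held it. Among genes lower by at least 2-fold in ECKO libraries 17 of 331 did (5.14%), against 9 of 1503 (0.599%) of those lower by less, 1 of 109 (0.917%) of those higher by at least 2-fold and 38 of 6840 (0.556%) of those not called. The motif stood in 4 of 12 windows of cytosolic tRNA synthetases, 4 of 16 of stress response genes, 3 of 20 of amino acid transporters, 2 of 15 of asparagine and proline enzymes and 2 of 12 of glutathione genes. None of the 14 windows of serine and folate enzymes or the 10 of myeloid markers held these letters.

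On the amino acid and stress response lists 13 genes were lower in ECKO libraries and held the motif. The 6 with the largest fall are shown. They are genes of import (Slc1a4, Slc7a11), proline synthesis (Pycr1), glutathione breakdown (Chac1), a stress response cofactor (Nupr1) and a lipoprotein receptor (Vldlr). Each run covers 250 bases before to 30 after the start in the direction of the gene, and capitals mark the motif; a match is a description of letters and shows no binding.
Slc1a4, chr11:20332684-20332963, minus strand: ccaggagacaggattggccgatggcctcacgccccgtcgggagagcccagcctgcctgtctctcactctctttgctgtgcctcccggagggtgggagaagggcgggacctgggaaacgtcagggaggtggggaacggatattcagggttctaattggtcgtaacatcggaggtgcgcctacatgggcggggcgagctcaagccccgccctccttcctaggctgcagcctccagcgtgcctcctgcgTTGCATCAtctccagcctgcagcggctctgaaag
Nupr1, chr7:126625441-126625720, minus strand: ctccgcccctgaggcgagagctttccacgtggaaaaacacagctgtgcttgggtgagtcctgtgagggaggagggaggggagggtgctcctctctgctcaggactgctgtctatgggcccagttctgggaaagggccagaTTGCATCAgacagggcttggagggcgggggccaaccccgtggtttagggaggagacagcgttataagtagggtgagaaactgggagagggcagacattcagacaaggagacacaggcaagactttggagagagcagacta
Pycr1, chr11:120643719-120643998, minus strand: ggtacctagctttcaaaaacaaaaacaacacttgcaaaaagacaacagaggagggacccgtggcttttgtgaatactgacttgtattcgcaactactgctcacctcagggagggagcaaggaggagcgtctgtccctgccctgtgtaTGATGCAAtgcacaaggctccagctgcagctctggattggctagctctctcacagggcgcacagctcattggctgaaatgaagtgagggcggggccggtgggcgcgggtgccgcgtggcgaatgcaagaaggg
Slc7a11, chr3:50443584-50443863, minus strand: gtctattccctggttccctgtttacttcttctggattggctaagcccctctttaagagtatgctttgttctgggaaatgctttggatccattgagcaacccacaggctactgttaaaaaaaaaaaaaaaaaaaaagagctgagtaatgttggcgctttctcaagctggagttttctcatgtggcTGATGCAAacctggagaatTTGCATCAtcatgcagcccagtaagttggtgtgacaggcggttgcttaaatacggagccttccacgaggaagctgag
Chac1, chr2:119350992-119351271, plus strand: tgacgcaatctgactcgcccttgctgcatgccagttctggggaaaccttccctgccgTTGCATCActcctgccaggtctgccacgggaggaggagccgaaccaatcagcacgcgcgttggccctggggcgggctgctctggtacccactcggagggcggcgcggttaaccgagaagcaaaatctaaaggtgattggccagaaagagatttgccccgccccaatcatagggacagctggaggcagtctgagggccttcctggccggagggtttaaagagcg
Vldlr, chr19:27216770-27217049, plus strand: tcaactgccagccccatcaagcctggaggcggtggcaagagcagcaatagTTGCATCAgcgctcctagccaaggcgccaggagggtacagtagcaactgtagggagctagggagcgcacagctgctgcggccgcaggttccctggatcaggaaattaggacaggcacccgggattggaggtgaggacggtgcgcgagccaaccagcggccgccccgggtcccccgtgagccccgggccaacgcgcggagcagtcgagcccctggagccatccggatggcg
The Slc7a11 window held 2 copies, 1 on each strand, and the other 5 windows held 1 copy each.

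Atf4 itself lies on chromosome 15 (chr15:80255184-80257541, plus strand). Its level was 552, 553, 542, 589 and 535 CPM in the wild type libraries and 8.70, 8.16, 8.00, 7.97 and 8.64 CPM in the ECKO libraries. The ECKO mean was 1.5% of the wild type mean, and no ECKO library stood apart from the others despite their difference in sex-linked RNA. The log2 fold change was -6.06 ± 0.065 (adjusted p = 1.6e-29), and the exact 2-sided permutation test of 5 against 5 libraries gave p = 0.0079, the smallest this design allows. Atf3, on chromosome 1, was measured at 373, 381, 266, 367 and 249 CPM in wild type and 78.5, 79.2, 85.2, 83.6 and 91.0 CPM in ECKO libraries. Wild type libraries 3 and 5 were the lower ones, yet still above every ECKO library. Atf3 fell by a log2 fold change of -1.97 ± 0.09 (adjusted p = 1.1e-15; exact permutation p = 0.0079). In the glycolytic muscle Atf3 averaged 76.6 CPM in wild type and 66.5 CPM in ECKO libraries and was not called, and the effects in the muscles differed by -1.77 ± 0.13 log2 units (adjusted p = 7.6e-11).

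Across 13971 tested genes, 4470 (32.0%) were called at an adjusted p below 0.05, of which 2035 were higher (14.6%) and 2435 lower (17.4%) in ECKO libraries. Large changes were more often falls: 460 genes (3.29%) were lower and 161 (1.15%) higher by at least 2-fold. For 2821 genes (20.2%) no ECKO library overlapped any wild type library. ECKO libraries 1 to 3 alone gave 4349 calls and libraries 4 and 5 alone 3808, of which 3608 and 3041 were among the 4470. The median log2 fold change of all tested genes was 0.02. These shares are the background for the gene groups that follow, for which members tested are those that passed the filter on low counts.

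**Figure D2:**
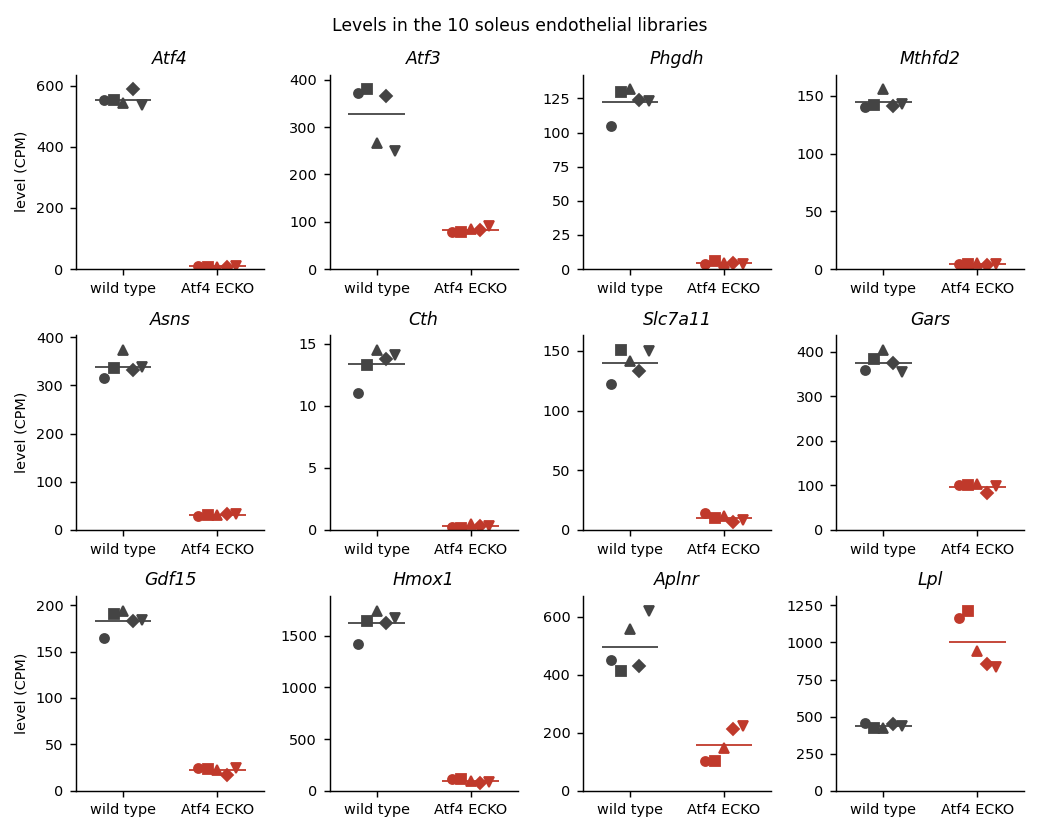
Level in CPM of 12 genes in the 10 soleus libraries, with 1 point per library (shapes give library numbers 1 to 5) and a line at the group mean. Wild type and Atf4 ECKO libraries do not overlap for any of the 12 genes, and Lpl is the one of them that was higher in ECKO libraries.

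Among the largest falls were enzymes of serine synthesis and of the folate cycle of mitochondria, which turn glucose carbon into serine, glycine and single-carbon units. Of 17 enzymes tested, 12 fell, 8 of them at least 2-fold, and the median log2 fold change was -0.86. Mthfd2, the mitochondrial methylene-tetrahydrofolate dehydrogenase, was at 140.0, 142, 156, 141 and 143 CPM in wild type and 4.03, 4.02, 5.15, 3.31 and 4.11 CPM in ECKO libraries, a log2 fold change of -5.11 ± 0.09 (adjusted p = 1.2e-24). All 5 ECKO libraries were thus at a few percent of the wild type level. The serine branch fell with it. Phgdh, its first enzyme, went from 123 ± 10.7 to 4.41 ± 0.745 CPM (log2 -4.84 ± 0.12). Psat1, the transaminase of the next step, went from 156 ± 7.44 to 8.38 ± 2.02 CPM (log2 -4.23 ± 0.10), and Psph, the final phosphatase, from 69.0 ± 4.69 to 10.6 ± 1.26 CPM (log2 -2.70 ± 0.11). Shmt2, which splits serine into glycine and a single-carbon unit in mitochondria, was at 174, 213, 218, 203 and 212 CPM and 31.7, 38.9, 37.2, 27.4 and 29.1 CPM (log2 -2.64 ± 0.092). Aldh1l2, which oxidises formyl-tetrahydrofolate in mitochondria, fell from 13 ± 2.68 to 0.483 ± 0.128 CPM (log2 -4.68 ± 0.25). Against these falls Mtr, the methionine synthase, was called slightly higher (log2 0.33 ± 0.12, adjusted p = 0.047). Its libraries overlapped, and leaving out ECKO library 1, 2, 3 or 5 or wild type library 1, 2, 3 or 5 ended the call (adjusted p from 0.06 to 0.14). Counts were 11 lower with ECKO libraries 1 to 3 and 10 with libraries 4 and 5.

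Enzymes that make asparagine and proline fell as strongly, while most of that list did not. Of 19 tested members 8 fell, 3 rose, and the median was -0.10. Asns, which makes asparagine from aspartate, was at 316, 336, 374, 332 and 338 CPM in wild type and 29.8, 30.1, 30.7, 33.4 and 32.8 CPM in ECKO libraries (log2 -3.43 ± 0.052, adjusted p = 5e-26). The spread within each group was small beside the gap between them. Bcat1, the cytosolic branched-chain aminotransferase, dropped from 27.5 ± 3.42 to 0.461 ± 0.136 CPM (log2 -5.89 ± 0.20). Both steps from glutamate to proline moved together: Aldh18a1 went from 67.0 ± 7.24 to 5.53 ± 1.31 CPM (log2 -3.54 ± 0.12) and Pycr1 from 14.1 ± 0.847 to 0.954 ± 0.409 CPM (log2 -3.86 ± 0.25). Gpt2, the mitochondrial alanine aminotransferase, fell to 16.8% of wild type (log2 -2.55 ± 0.20), and Got1, the cytosolic aspartate aminotransferase, to 44.0% (log2 -1.19 ± 0.084). The 3 members that rose were 1 kinase that inhibits the breakdown of branched-chain amino acids, and subunits of the enzyme it inhibits. Bckdk, the kinase, changed by log2 0.22 ± 0.059, and the subunits Bckdha by 0.16 ± 0.061 and Bckdhb by 0.47 ± 0.16. These rises were small, and the calls of Bckdha and Bckdhb were lost when single libraries were left out: 8 of the 10 for Bckdha (ECKO 2, 4 and 5 and all wild type, adjusted p from 0.056 to 0.14) and 4 for Bckdhb (ECKO 2 and 4, wild type 2 and 3, adjusted p from 0.067 to 0.094).

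Cysteine supply and glutathione genes followed. Of 16 tested genes 11 fell and 2 rose, with a median of -0.63. Cth, the enzyme that releases cysteine from cystathionine, was at 11, 13.3, 14.5, 13.8 and 14.1 CPM in wild type and 0.212, 0.118, 0.485, 0.339 and 0.274 CPM in ECKO libraries (log2 -5.43 ± 0.29, adjusted p = 4.8e-14). In ECKO libraries it was close to the limit of detection. Slc7a11, the cystine importer whose promoter held the motif on both strands, was at 122, 151, 142, 133 and 150.0 CPM and 13.9, 10.3, 11.7, 6.87 and 8.55 CPM (log2 -3.77 ± 0.11). Chac1, which breaks down glutathione, fell from 56.7 ± 5.79 to 4.20 ± 0.772 CPM (log2 -3.73 ± 0.11), and Gclm, a subunit of the enzyme that starts glutathione synthesis, from 389.9 ± 22.4 to 88.2 ± 10.6 CPM (log2 -2.15 ± 0.062). Genes of glutathione breakdown and of its synthesis both fell. The 2 that rose stand upstream of Cth: Ahcy, the adenosylhomocysteine hydrolase, rose from 7.16 ± 1.66 to 24.0 ± 5.26 CPM (log2 1.72 ± 0.16, adjusted p = 4.9e-09), and Cbs, the cystathionine synthase, from 0.463 ± 0.190 to 1.38 ± 0.598 CPM (log2 1.51 ± 0.40, adjusted p = 0.0048). Cbs was low and its libraries overlapped.

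Of 28 amino acid transporters tested of 32 listed, 12 fell and 3 rose, with a median of -0.20. Slc1a4, a carrier of neutral amino acids such as alanine and serine, was at 30.4, 33.8, 35.7, 32.2 and 35.3 CPM in wild type and 1.41, 1.42, 1.94, 2.71 and 0.549 CPM in ECKO libraries (log2 -4.45 ± 0.20). Slc6a9, a glycine transporter, fell to 7.08% of wild type (log2 -3.77 ± 0.14). Slc7a5, the carrier of large neutral amino acids such as leucine, fell to 11.1% (log2 -3.13 ± 0.22). Slc7a1, the arginine and lysine importer, was at 94.9, 114, 108, 101 and 104 CPM and 28.3, 27.9, 25.6, 27.2 and 27.7 CPM (log2 -1.93 ± 0.058). For these 4 carriers no ECKO library reached a wild type library. Slc43a3, which is known as a purine base carrier rather than an amino acid carrier, rose from 339 ± 9.83 to 449.8 ± 33.2 CPM (log2 0.41 ± 0.046). Slc43a1, a large neutral amino acid carrier, was called higher by 0.90 ± 0.31, a call lost without ECKO library 2 or 3 or wild type library 1, 2 or 3 (adjusted p from 0.053 to 0.11), and Slc38a4, a carrier that was low in both groups, by 2.09 ± 0.51.

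The enzymes that charge tRNAs split by list. The mitochondrial list held no gene for glycine or lysine, so a gene that serves both compartments stands in the cytosolic list. Of 20 cytosolic tRNA synthetases tested, 16 fell and 2 rose, with a median log2 fold change of -1.38, while of 17 mitochondrial synthetases 3 rose, the other 14 were not called and the median was 0.10. Nars, for asparagine, was at 293, 314, 298, 305 and 314 CPM in wild type and 94.1, 94.3, 92.0, 86.5 and 85.7 CPM in ECKO libraries (log2 -1.75 ± 0.044). Gars, for glycine, was at 359, 383, 404, 375 and 354 CPM and 101, 101, 102, 82.6 and 98.0 CPM (log2 -1.95 ± 0.056), and Cars, for cysteine, at 109, 109, 107, 109 and 108 CPM and 24.5, 23, 25.1, 25.7 and 20.5 CPM (log2 -2.20 ± 0.066). For all 3 the libraries within a group lay close together and the groups were far apart. Tars, for threonine, had log2 -1.56 ± 0.049, Sars, for serine, -1.51 ± 0.051, and Aars, for alanine, -1.70 ± 0.059. The cytosolic members that rose were Qars (0.23 ± 0.059) and Vars (0.31 ± 0.093), and the libraries of both overlapped; Vars had an adjusted p of 0.052 without ECKO library 2, and a fit with an offset for transcript length ended both calls (adjusted p = 0.29 and 0.55). Among the mitochondrial enzymes Cars2, for cysteine, rose by 0.47 ± 0.11 (adjusted p = 0.0017) and Iars2, for isoleucine, by 0.25 ± 0.06 (adjusted p = 0.002). With the libraries split, 16 cytosolic synthetases were lower with ECKO libraries 1 to 3 and 16 with libraries 4 and 5.

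**Figure D3:**
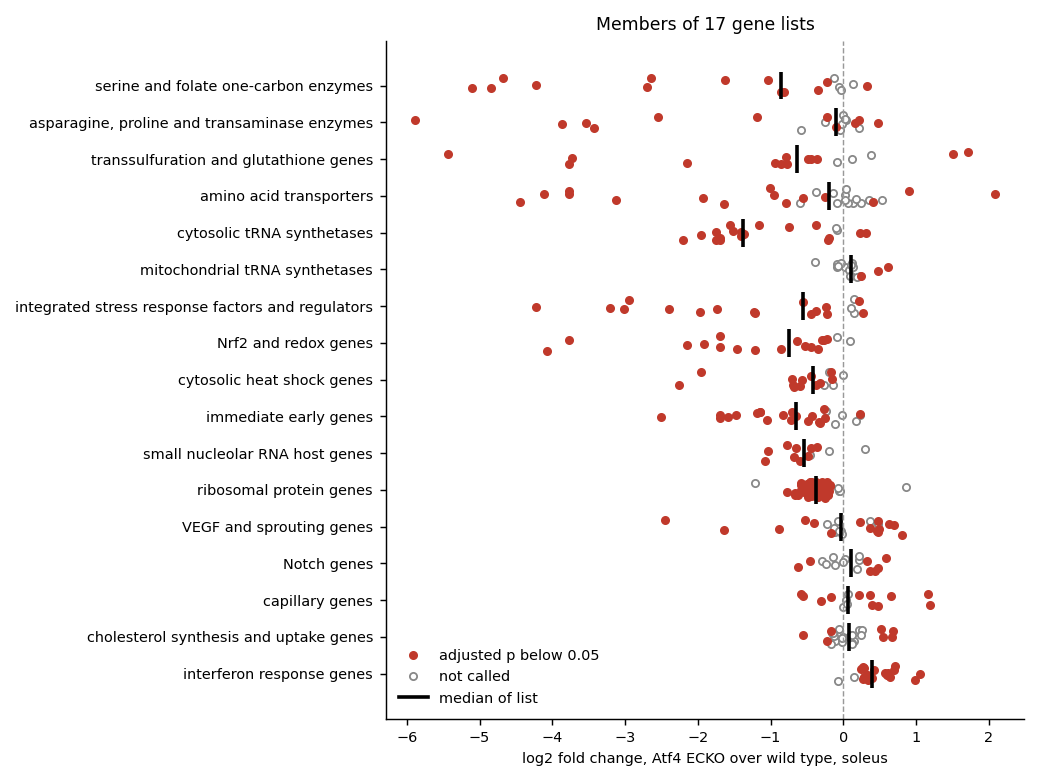
Log2 fold change (Atf4 ECKO over wild type, soleus) of each tested member of 17 gene lists, with called members filled, members not called open, and a bar at the list's median. The medians of the serine, glutathione and cytosolic tRNA synthetase lists lie left of 0, that of the mitochondrial tRNA synthetases is close to 0, and all called interferon genes lie right of 0.

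Other parts of the stress response fell too. Of 19 factors and regulators tested, Atf4 not counted among them, 14 fell and 2 rose, with a median of -0.56. Nupr1, a small chromatin protein, was at 36.3, 37.8, 44.2, 40.3 and 40.3 CPM in wild type and 1.34, 1.65, 1.70, 3.39 and 2.47 CPM in ECKO libraries (log2 -4.22 ± 0.17). Atf5, a bZIP factor, went from 43.8 ± 6.6 to 4.80 ± 1.04 CPM (log2 -3.21 ± 0.14). The brakes of the response were among the falls: Trib3, a pseudokinase that binds ATF4, went from 137 ± 13.2 to 17.9 ± 1.83 CPM (log2 -2.95 ± 0.083), and Ppp1r15a, the phosphatase subunit that reverses eIF2α phosphorylation, from 361 ± 3.86 to 108 ± 7.64 CPM (log2 -1.74 ± 0.046). Ddit3, which encodes CHOP, changed far less, from 36.4 ± 5.05 to 26.6 ± 1.18 CPM (log2 -0.44 ± 0.08, adjusted p = 9.3e-05), although its libraries did not overlap. Cebpg, a C/EBP partner of ATF4, fell by a log2 fold change of -0.37 ± 0.055. Vldlr, whose promoter held the motif, fell to 18.8% of wild type (log2 -2.40 ± 0.20). The 2 that rose are kinases of eIF2α, Eif2ak1 (heme-regulated, 0.22 ± 0.064) and Eif2ak2 (activated by double-stranded RNA, 0.27 ± 0.093), the latter with an adjusted p from 0.066 to 0.097 without ECKO library 1 or 5 or wild type library 2.

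Links to the mTORC1 growth pathway were mixed. Of 17 tested regulators listed, most but not all of them restraints, 5 rose and 3 fell. Rises numbered 3 without ECKO library 4 or wild type library 1 or 2. Eif4ebp1, which holds back cap-dependent translation, was at 319, 341, 381, 349 and 369 CPM in wild type and 80.2, 74.3, 78.1, 60.0 and 58.0 CPM in ECKO libraries (log2 -2.33 ± 0.075). Sesn2, a leucine sensor, fell from 56.6 ± 2.64 to 24.8 ± 2.37 CPM (log2 -1.19 ± 0.087). Castor1, an arginine sensor, rose by 0.49 ± 0.066 and Tsc2, a subunit of the TSC complex, by 0.30 ± 0.052.

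Chaperone genes fell in the mitochondrial and cytosolic lists. Of 13 mitochondrial chaperones and proteases 7 fell and 2 rose. Hspa9, the mitochondrial Hsp70, was at 447, 515, 523, 486 and 489 CPM in wild type and 149, 149, 151, 134 and 141 CPM in ECKO libraries (log2 -1.76 ± 0.049), and Lonp1, a matrix protease, fell by -0.54 ± 0.071. Of 16 cytosolic heat shock genes 12 fell and the other 4 were not called (median -0.42). Hspa1a, the stress-induced Hsp70, was at 634, 606, 351, 601 and 379 CPM and 133, 146, 112, 76.0 and 74.8 CPM (log2 -2.26 ± 0.16); Hspa1b is a near-identical copy, so the division of reads between them is uncertain. The endoplasmic reticulum list did not move as a whole: 6 of 22 fell, 4 rose, and the median was 0.01. Within it Hspa5, the chaperone BiP, fell by -0.54 ± 0.046 and Atf6, a sensor of misfolded protein, by -0.78 ± 0.065, while Xbp1, the factor of another sensor branch, rose by 0.42 ± 0.079. Xbp1 was at 274, 282, 234, 184 and 192 CPM in ECKO libraries against 168 to 178 CPM in wild type, so its rise was larger in libraries 1 to 3.

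Redox and iron genes held some of the most abundant RNAs that changed. Of 18 Nrf2 and redox genes 16 fell and the other 2 were not called, with a median of -0.75; this list shares Gclm and Slc7a11 with the glutathione list. Hmox1, which opens the heme ring and releases iron, was at 1419, 1640.0, 1744, 1627 and 1677 CPM in wild type and 113, 115, 98.5, 72.6 and 83.7 CPM in ECKO libraries (log2 -4.07 ± 0.093, adjusted p = 6.7e-22). The ECKO mean was 5.95% of the wild type mean, and no library stood between the groups. Nqo1, a quinone reductase, went from 86.2 ± 5.91 to 26.5 ± 1.98 CPM (log2 -1.70 ± 0.063) and Txnrd1, a thioredoxin reductase, from 347 ± 16.6 to 127 ± 12.8 CPM (log2 -1.46 ± 0.053). Of 19 heme and iron genes 7 fell and 3 rose. The rises were small and of genes for heme synthesis, Alas1 (0.22 ± 0.058) and Alad (0.24 ± 0.094), and for bilirubin formation, Blvra (0.19 ± 0.07). Leaving out single libraries ended the call of Alad in 8 of 10 cases (all ECKO and wild type 1, 2 and 4, adjusted p from 0.058 to 0.16) and of Blvra in 7 (ECKO 1, 2 and 4, wild type 1, 2, 3 and 5, adjusted p from 0.054 to 0.092). Erythrocyte markers fell beside this list, and their part in it was not tested. Both chains of ferritin, which stores iron, fell: Fth1 was at 5001, 5528, 5905, 5617 and 5390.2 CPM and 2329, 2248, 2103, 1796 and 1877 CPM (log2 -1.41 ± 0.059), and Ftl1 changed by -0.74 ± 0.042. Slc40a1, the iron exporter, fell to 15.3% of wild type (log2 -2.78 ± 0.28). Sqstm1, the p62 autophagy receptor, went from 2350.4 ± 129 to 807 ± 75.7 CPM (log2 -1.54 ± 0.055), while of 22 autophagy genes 6 fell and 1 rose.

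Macrophages also express Hmox1, Slc40a1 and ferritin, and myeloid RNA fell with genotype. Lyz2, a lysozyme of macrophages and granulocytes, was at 152, 196, 199.8, 182 and 197 CPM in wild type and 56.8, 55.1, 56.2, 39.9 and 28.4 CPM in ECKO libraries (log2 -1.98 ± 0.13). Cd74, the class II invariant chain, fell to 5.75% of wild type (log2 -4.10 ± 0.25). Among the 15 largest falls, Ccl6, a chemokine (log2 -6.74 ± 0.30), Saa3, an acute phase protein (log2 -4.48 ± 0.20), and Wfdc17 (log2 -4.15 ± 0.32) are also known from myeloid cells. In bulk libraries fewer cells of a type and less RNA per cell cannot be told apart. A fit with the myeloid level as a covariate called lower 6 redox genes, 8 serine and folate enzymes and 10 cytosolic tRNA synthetases. It also called 14 immediate early genes lower. Without the covariate these counts were 16, 12, 16 and 19. Of all 4470 calls, 802 were kept in the same direction. The myeloid level did not overlap between genotypes, so this fit extrapolates. In it the log2 fold change was -2.53 for Hmox1 (adjusted p = 1.9e-08), -0.43 for Fth1 (adjusted p = 0.11), -0.32 for Ftl1 (adjusted p = 0.25) and -2.48 for Slc40a1 (adjusted p = 0.29). The part of myeloid RNA in these falls was not tested beyond that fit.

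Genes of secreted and surface proteins given here fell together with an enzyme gene, Soat2. Adm2, a vasodilator peptide of the adrenomedullin family, was at 10.9, 13.9, 13.9, 17.1 and 15.3 CPM in wild type and 0.0707, 0, 0, 0 and 0.0914 CPM in ECKO libraries (log2 -8.15 ± 0.41, adjusted p = 1.3e-14), and 3 of the ECKO libraries held no count. Soat2, a cholesterol-esterifying enzyme, went from 13.6 ± 1.48 to 0.194 ± 0.115 CPM (log2 -6.07 ± 0.34). Tnfsf18, the ligand of the T cell receptor GITR, was at 7.41, 10.0, 12.7, 7.79 and 9.33 CPM and 0.424, 0.236, 0.121, 0.593 and 0.366 CPM (log2 -4.74 ± 0.33). Of 7 tested TNF superfamily ligands of 13 listed 4 fell and 1 rose. Gdf15, a stress hormone, was at 165, 190.5, 194, 183 and 184 CPM and 24.8, 23, 22.3, 17.2 and 25.0 CPM (log2 -3.02 ± 0.079). Il6, an inflammatory cytokine, fell from 7.28 ± 1.03 to 0.756 ± 0.342 CPM (log2 -3.28 ± 0.30). Procr, the endothelial protein C receptor, was at 258, 284, 307, 290.2 and 278 CPM and 56.4, 59.2, 60.9, 43.7 and 64.7 CPM (log2 -2.31 ± 0.07). Selp, the leukocyte-binding P-selectin, was at 120.0, 122, 109, 108 and 101 CPM and 36.2, 36.6, 32.1, 29.8 and 31.9 CPM (log2 -1.75 ± 0.061). For each of these 7 genes every ECKO library lay below every wild type library. Of 21 adhesion, chemokine and NF-kB feedback genes 11 fell and 4 rose, with a median of -0.37. The rises were Cx3cl1 (0.35 ± 0.064), Icam1 (0.37 ± 0.07), Birc3 (0.38 ± 0.076) and Nfkbia (0.26 ± 0.056), and with ECKO libraries 4 and 5 alone the adjusted p of the 4 ranged from 0.07 to 0.14, so these calls were lost.

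Genes of vessel growth moved in both directions. Of 24 tested VEGF and sprouting genes 9 rose and 6 fell (median -0.02). Aplnr, the apelin receptor of venous and sprouting endothelium, was at 449.9, 412, 559, 429 and 621 CPM in wild type and 103, 101, 148, 213 and 222 CPM in ECKO libraries (log2 -1.64 ± 0.16, adjusted p = 4.5e-09). Its groups did not overlap, although wild type libraries 3 and 5 and ECKO libraries 4 and 5 were the high ones of their groups. Angpt2, a destabilising ligand of the receptor Tie2, rose from 542, 597, 589.7, 578 and 576 CPM to 1034, 1018, 980.1, 646 and 779.5 CPM (log2 0.63 ± 0.082), more in ECKO libraries 1 to 3 than in 4 and 5. Adm, the adrenomedullin gene, fell from 319 ± 21.5 to 174 ± 19.8 CPM (log2 -0.88 ± 0.067). Vegfa was low, at 1.28 ± 0.0848 CPM, and fell to 0.208 ± 0.146 CPM (log2 -2.45 ± 0.51), a call lost with the transcript length offset (adjusted p = 0.067). In the Notch list 5 of 16 rose: the ligand Dll4 was at 290.4, 279.9, 253, 276 and 271 CPM and 394, 404, 378, 367 and 356 CPM (log2 0.47 ± 0.048), and the receptors Notch1 and Notch4 rose by 0.43 ± 0.062 and 0.58 ± 0.079. The ligands Jag1 (-0.46 ± 0.082) and Dll1 (-0.62 ± 0.096) fell.

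The TGF-beta and BMP list held 8 rises and 2 falls among 21 genes. Id1 and Id3, inhibitors of helix-loop-helix factors and BMP targets, rose: Id1 was at 726, 677, 457, 670.4 and 457 CPM in wild type and 867, 953, 906, 961 and 961 CPM in ECKO libraries (log2 0.64 ± 0.092), and Id3 rose by 0.65 ± 0.071. The accessory receptor Tgfbr3 rose from 65.3 ± 6.76 to 118 ± 12.5 CPM (log2 0.84 ± 0.066). Among vasomotor genes 6 of 18 rose and 5 fell. The vasoconstrictor gene Edn1 rose from 233, 263, 250.1, 259.8 and 239 CPM to 513, 485, 466, 310.3 and 383 CPM (log2 0.79 ± 0.084), and Ace, the angiotensin-converting enzyme, by 0.82 ± 0.13. Ptgs2, the inducible cyclooxygenase, fell to 9.32% of wild type (log2 -3.40 ± 0.28).

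Identity genes mostly changed by less than 2-fold. Of 16 pan-endothelial markers 8 rose and 2 fell, with a median of 0.16: Pecam1, the gene of the CD31 used for sorting, rose by 0.23 ± 0.042 and Emcn, a sialomucin of capillaries and veins, fell by -0.52 ± 0.04. Of 15 capillary genes 7 rose and 4 fell. The rises were led by Lpl, the lipase that frees fatty acids from lipoproteins, at 456, 422, 422, 453 and 439 CPM in wild type and 1162, 1214, 945, 854 and 834 CPM in ECKO libraries (log2 1.19 ± 0.075, adjusted p = 1.5e-12), and by Timp4, an inhibitor of matrix proteases, at 650.3, 623, 570.2, 628 and 591 CPM and 1643, 1705, 1364, 1108 and 1082 CPM (log2 1.17 ± 0.087). In both the order ran from libraries 1 and 2 over 3 to 4 and 5, and the lowest ECKO library was above every wild type library. Gpihbp1, the capillary anchor of lipoprotein lipase, rose by 0.48 ± 0.058. Tcf15, a factor of capillaries that take up fatty acids, fell from 150.2 ± 8.91 to 100.2 ± 11.6 CPM (log2 -0.58 ± 0.062). Arterial genes held 8 falls and 2 rises among 16 (median -0.33), and 1 of the falls was at least 2-fold. Venous genes held 8 falls and 2 rises among 12 (median -0.27), and 2 of the falls were at least 2-fold, among them Selp (log2 -1.75). Of the junction genes Cgnl1, a paracingulin at cell contacts, fell by -0.97 ± 0.094 and Cldn5, the main endothelial claudin, rose by 0.46 ± 0.077.

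Immediate early genes, which cells switch on within minutes of a stimulus and of tissue handling, were lower. Of 25 tested 19 fell and 1 rose, with a median of -0.65. Fos was at 1243, 1186, 935, 1124 and 957 CPM in wild type and 311, 342, 349, 412 and 409 CPM in ECKO libraries (log2 -1.58 ± 0.075). Fosl1, another AP-1 subunit, went from 71.6 ± 10.3 to 12.6 ± 3.23 CPM (log2 -2.51 ± 0.14). Klf6, the member that rose, changed by 0.23 ± 0.052.

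Interferon response genes rose together, by modest amounts. Of 21 tested 19 rose and the other 2 were not called, with a median of 0.39. Ifit1, a sensor of foreign RNA ends, was at 55.2, 40.5, 42.3, 47.4 and 41.5 CPM in wild type and 90.0, 90.8, 90.7, 99.9 and 97.1 CPM in ECKO libraries (log2 1.05 ± 0.067). Ifit3 was at 51.7, 48.6, 52.7, 51.5 and 60.7 CPM and 104, 113, 99.9, 102 and 105 CPM (log2 0.98 ± 0.054). The ECKO libraries lay close together for both genes. ECKO libraries 1 to 3 gave 18 rises and libraries 4 and 5 18. Of 12 class I presentation genes 5 rose and 2 fell.

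Most cytosolic ribosomal protein genes were lower by small amounts, and the genes of the mitochondrial genome fell further. Of 82 tested cytosolic ribosomal protein genes 77 fell, with a median log2 fold change of -0.37; many have near-identical pseudogene copies, so their single values are uncertain. Of 78 mitochondrial ribosomal protein genes 23 fell, 7 rose and 48 were not called (median -0.03). All 13 protein-coding genes of the mitochondrial genome fell, with a median of -0.70, and mitochondrial RNA made up 8.23 to 10.3% of wild type counts and 5.19 to 7.83% of ECKO counts. Of 30 nuclear oxidative phosphorylation genes 15 fell and 2 rose, with a median of -0.11, and with ECKO libraries 1 to 3 alone the counts were 7 and 6. Leaving out ECKO library 3 or 5 gave 9 falls. Of 12 small nucleolar RNA host genes, whose spliced RNAs build up when translation is blocked, 9 fell and the other 3 were not called. Zfas1 was at 46.8, 49.0, 46.7, 47.3 and 44.4 CPM in wild type and 24.0, 19.1, 20.7, 19.4 and 26.1 CPM in ECKO libraries (log2 -1.08 ± 0.09).

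Lists whose direction depended on the libraries included those of fibroblasts and of the clock. Of 11 tested fibroblast markers 5 were lower with ECKO libraries 1 to 3 and 7 higher with libraries 4 and 5. Of 19 clock genes 7 rose and 3 fell. With ECKO libraries 1 to 3 3 rose and 6 fell, and with libraries 4 and 5 13 rose and 3 fell. Leaving out ECKO library 4 or 5 alone gave 4 rises. Per2, a repressor of the clock, was at 22.8, 22.9, 30.2, 39.2 and 37.6 CPM in ECKO libraries against 14.3 to 18.1 CPM in wild type (log2 0.92 ± 0.14). Nfil3, a repressor of clock output, fell from 26.5 ± 1.99 to 6.64 ± 1.42 CPM and was lower in every ECKO library (log2 -2.01 ± 0.14). Glucocorticoid response genes held 8 rises and 3 falls among 15. Zbtb16, a zinc finger factor of that list, was at 82.0, 88.4, 55.9, 35.0 and 39.5 CPM in ECKO libraries against 16.0 to 20.4 CPM in wild type (log2 1.74 ± 0.18), highest in libraries 1 and 2. Among the genes given values here, 18 lost their call with ECKO libraries 4 and 5 alone, all of them rises (adjusted p from 0.066 to 0.98): Mtr, Alad, Blvra, Bckdha, Bckdhb, Bckdk, Slc43a1, Qars, Vars, Cars2, Eif2ak1, Eif2ak2, Xbp1, Slco4a1 and the 4 adhesion and NF-kB genes. Of these genes, Mtr, Alad, Bckdha, Bckdhb and Eif2ak2 also lost their call with ECKO libraries 1 to 3 alone (adjusted p from 0.053 to 0.092). The fit with libraries 4 and 5 rests on fewer ECKO libraries, so a lost call there does not show that a rise is absent. The metallothionein gene Mt1 fell from 241 ± 19.6 to 65.5 ± 8.97 CPM (log2 -1.88 ± 0.076).

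Of 19 cell cycle genes 8 fell and 2 rose, with a median of -0.36. Mki67, a marker of dividing cells, was at 0.570, 0.211, 7.13, 0.565 and 6.86 CPM in wild type and 0.0707, 0.827, 0.242, 0.339 and 0.0914 CPM in ECKO libraries (log2 -3.53 ± 0.76, adjusted p = 0.00067). The wild type level came from libraries 3 and 5, and the groups overlapped. Wild type libraries 3 and 5 were also the higher ones for fibroblast markers and Aplnr and the lower ones for Atf3, Id1 and Fos. Cyp26b1, which breaks down retinoic acid, was at 97.4, 92.9, 54.9, 103 and 49.0 CPM and 14.1, 12.1, 11.4, 14.7 and 12.1 CPM (log2 -2.63 ± 0.16), again with wild type libraries 3 and 5 lower but above every ECKO library.

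Metabolic and matrix genes moved in both directions. Of 25 glycolysis and pyruvate genes 8 rose and 5 fell, with a median of 0.09. Pgk1, which makes the first ATP of the pathway, was at 255, 281, 310.3, 298 and 285 CPM in wild type and 175, 186, 186, 151 and 167 CPM in ECKO libraries (log2 -0.73 ± 0.055), and Hk2, an inducible hexokinase, fell to 20.9% of wild type (log2 -2.25 ± 0.33). Tpi1, the triosephosphate isomerase, had a log2 fold change of 0.20 ± 0.043 and Pfkl, the liver-type phosphofructokinase, 0.23 ± 0.054. Of 20 purine and pyrimidine enzymes 4 fell and 2 rose, with a median of -0.02. Of 19 matrix proteases and inhibitors 7 fell and 5 rose: Mmp15, a membrane-bound protease, fell from 118 ± 7.12 to 58.5 ± 8.50 CPM (log2 -1.02 ± 0.068) and Adam8, a sheddase, to 19.7% of wild type (log2 -2.38 ± 0.25). Of 21 matrix genes 7 fell and 5 rose. Col15a1, a collagen of the capillary basement membrane, was at 40.9, 34.9, 57.9, 39.7 and 62.9 CPM and 12.0, 12.1, 17.6, 22.1 and 24.5 CPM (log2 -1.40 ± 0.16), with wild type libraries 3 and 5 and ECKO libraries 4 and 5 the higher ones, as for the fibroblast markers.

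Among the largest rises 1 gene lies close to the targeted locus. Cacna1i, a calcium channel gene downstream of Atf4 on chromosome 15 (chr15:80287238-80398279, plus strand), was at 0 in every wild type library and at 18.8, 15.1, 14.5, 13.6 and 14.4 CPM in ECKO libraries, at least 339-fold higher against a floor of 3 counts over the wild type group. Rps19bp1, which lies between Atf4 and Cacna1i (chr15:80260615-80264315, minus strand), went from 21.3 ± 2.59 to 1.97 ± 0.172 CPM (log2 -3.44 ± 0.13); it was chosen for its place after its values were seen. Exosc6, an exosome subunit gene whose span overlaps Aars, was at 0 in every wild type library and at 13.1, 12.1, 14.1, 14.4 and 10.7 CPM in ECKO libraries, at least 286-fold higher against the same floor, and the assignment of reads between overlapping genes is uncertain. Esr1, the oestrogen receptor alpha gene, was at 1.79, 2.63, 2.38, 1.63 and 2.47 CPM and 34.9, 34.7, 39.6, 26.6 and 30.4 CPM (log2 3.94 ± 0.16). Wild type mice carried no Cre, and Cre proteins that tamoxifen activates commonly carry part of that receptor, so reads of such a transgene and of Esr1 itself cannot be told apart. Other rises were Tent5b, a poly(A) polymerase (2.19 ± 0.20), Gpr160, an orphan receptor (2.16 ± 0.20), Tnfrsf8, which encodes CD30 (1.91 ± 0.28), Ifi208, an interferon-inducible gene (1.83 ± 0.18), Klf15, a metabolic zinc finger factor (1.55 ± 0.14), Slco4a1, an organic anion carrier (1.54 ± 0.28), and Ajuba, a LIM protein of cell contacts (1.5 ± 0.093). Medag (1.68 ± 0.22) and Hhipl1 (1.61 ± 0.24) rose most in ECKO libraries 1 and 2, Medag from 11.7 ± 1.01 CPM to 58.0, 54.6, 38.4, 22.2 and 17.1 CPM.

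The same deletion was measured in the glycolytic muscle, where 4054 of the 13971 genes were called (29.0%), 1939 higher (13.9%) and 2115 lower (15.1%). A difference between the effects in the 2 muscles (the interaction) was called for 3163 genes (22.6%), with the effect more negative in the soleus for 1746 (12.5%) and more positive for 1417 (10.1%). All 5 ECKO libraries of the glycolytic muscle had at most 1.55 CPM of Y-linked RNA and 59.3 CPM or more of Xist, so the muscles also differed in sex-linked RNA, and its part in the interaction was not tested. Atf4 started higher in wild type soleus (554 CPM, against 262 CPM in the glycolytic muscle), and the ECKO levels were 8.29 and 7.38 CPM.

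Many amino acid genes fell in both muscles, part of them further in the soleus. Of the 17 serine and folate enzymes 9 had a more negative effect in the soleus and 2 a more positive one. For the 20 cytosolic tRNA synthetases the counts were 13 and 1, and for the 16 glutathione genes 8 and 0. For the 28 transporters they were 11 and 3, and for the 19 asparagine, proline and transaminase enzymes 6 and 4. These counts did not require a fall in the glycolytic muscle, where 8, 14, 7, 9 and 9 members fell, in the same order. Mthfd2 averaged 144 CPM in wild type soleus and 39.7 CPM in the wild type glycolytic muscle, and 4.12 and 4.44 CPM without Atf4, a difference between effects of -1.92 ± 0.15 log2 units (adjusted p = 2.8e-10). Asns averaged 339 and 141 CPM in wild type and 31.3 and 39.4 CPM without Atf4 (difference -1.59 ± 0.071, adjusted p = 9.7e-15). Both wild type means were higher in the soleus, a difference that was not tested.

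Other genes fell strongly in the soleus and fell little or rose in the glycolytic muscle. Myeloid markers also differed between the muscles: they summed to 38.0 to 45.4 CPM in wild type and 22.4 to 24.6 CPM in ECKO libraries of the glycolytic muscle, against 371 to 479 and 53.1 to 114 CPM in the soleus, and their part in the values of this paragraph was not tested. Gdf15 changed by -3.02 ± 0.079 in the soleus and by 0.82 ± 0.079 in the glycolytic muscle, where it rose from 29.8 to 52.6 CPM (difference -3.84 ± 0.11, adjusted p = 1.1e-18). Hmox1 averaged 156 CPM in wild type and 129.7 CPM in ECKO libraries of the glycolytic muscle (difference -3.81 ± 0.12, adjusted p = 6.2e-18), far below its level of 1621 CPM in wild type soleus. Ppp1r15a differed by -1.89 ± 0.065, Hspa9 by -1.55 ± 0.068, Ifrd1, a transcriptional co-regulator, by -1.75 ± 0.081, and Lgals3, the galectin-3 gene that macrophages also express, by -2.33 ± 0.11. For small nucleolar RNA host genes the directions opposed: 9 of 12 fell in the soleus, 9 rose in the glycolytic muscle, and 9 differed between them, among them Snhg15 (-0.65 ± 0.085 and 2.01 ± 0.09, difference -2.67 ± 0.12). YAP and SRF target genes held 4 rises and 4 falls in the soleus and 13 rises in the glycolytic muscle, and 12 of 18 differed. Pericyte and smooth muscle markers, which share contractile genes with that list, summed to 963 to 978 CPM in wild type and 2127 to 2184 CPM in ECKO libraries of the glycolytic muscle, where 4 of 13 rose and 2 fell, and 8 rose in the soleus. Their part in the change of the list was not tested. Ccn2, a matricellular target of YAP, changed by -0.80 ± 0.086 in the soleus and by 1.83 ± 0.088 in the glycolytic muscle (difference -2.63 ± 0.12).

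In the other direction stood interferon, class I and cholesterol genes. Of 21 interferon genes 17 had a more positive effect in the soleus: in the glycolytic muscle 3 rose and 4 fell. Ifit3 differed by 0.81 ± 0.076, Igtp, an immunity-related GTPase, by 0.83 ± 0.069, and Gbp2, a guanylate-binding protein, by 0.84 ± 0.075. Of 12 class I genes 12 differed, among them the immunoproteasome subunits Psmb8 (0.58 ± 0.055) and Psmb10 (0.62 ± 0.059), and 10 fell in the glycolytic muscle. Cholesterol synthesis and uptake genes held 4 rises and 3 falls among 25 in the soleus, against 17 falls in the glycolytic muscle, and 14 differed. Within the soleus Abca1, the sterol exporter, rose by 0.68 ± 0.064 and Insig1, a brake on sterol synthesis, fell by -0.55 ± 0.071. Tgfbr3 rose in the soleus and fell by -0.37 ± 0.065 in the glycolytic muscle (difference 1.21 ± 0.093, adjusted p = 2e-10). Pde2a, a cyclic nucleotide phosphodiesterase, differed by 0.92 ± 0.087 and Tram1, a protein of the translocon, by 0.68 ± 0.06.

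**Figure D4:**
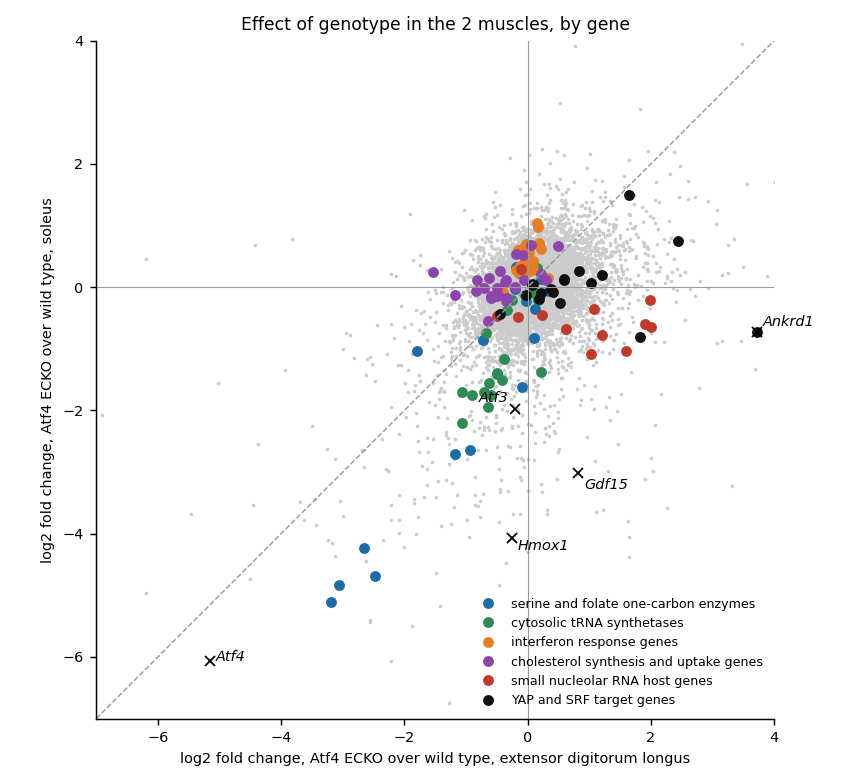
Log2 fold change (Atf4 ECKO over wild type) of every tested gene within the axes in the extensor digitorum longus (x) and the soleus (y), with members of 6 lists in colour, 5 genes named, and a dashed line where both effects are equal. The serine and synthetase genes with large falls, except Aldh1l1, lie below the line. Most small nucleolar RNA host genes lie right of 0 and below 0, and most interferon genes lie above the line.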

How the data were processed

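Polyadenylated RNA of sorted soleus and extensor digitorum longus endothelial cells was sequenced from 1 end (100 bp, stranded kit), 5 libraries per group. The authors deposited, per library, estimated counts and TPM values per transcript. Per the submitters' processing notes kallisto and DESeq2 were used, without versions, with the build GRCh38.p13, a human assembly, although the identifiers are those of mouse transcripts. No source used here gives the strand handling, so overlapping genes are uncertain. The deposited effective lengths served 1 alternative only, and the deposited TPM values were not used for tests.

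Names and coordinates came from GENCODE M21 (GRCm38), which matched 128643 of 129439 transcripts; at most 0.221% of a library's counts had no match. Estimated counts were summed over 42374 genes, rounded, and tested in edgeR 4.0.16 (R 4.3.3; quasi-likelihood test, TMM factors from 0.887 to 1.04 in the 10 libraries, filterByExpr, 1 fit of the 4 group means over 20 libraries, Benjamini-Hochberg over 13971 genes, call at adjusted p below 0.05). The SE is the size of the log2 fold change over the square root of F. Atf4 and Atf3 were also tested by exact permutation of log2(CPM + 1). Depth ranged from 8495672 to 21061644 counts, and no 2 libraries agreed within counting noise. On simulated counts for 13758 genes with 200 changed, 61.2% of 1.5-fold, 83.6% of 2-fold and all 4-fold changes were recovered, with 10 false calls. The simulated libraries were independent and lacked the steps between ECKO libraries and the shifts of other RNA with genotype. The false calls therefore do not give the error rate in these data.

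Groups came from the titles. Alternatives were RLE factors, no filter, DESeq2 1.42.0, limma-voom (limma 3.58.1), oxidative libraries only, a length offset, a replicate block, a myeloid covariate, ECKO libraries 1 to 3 or 4 and 5 only, and each library left out; for the permutation test, CPM without TMM factors and a pseudocount of 0.1. The members and lists were chosen with earlier results of these data known. Named were stress response factors, the 15 largest falls and rises at a mean of at least 4 CPM outside lists of other cell types, the 6 members of a list with the smallest adjusted p and those called against most of their list, and 8 interaction genes per direction.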

Additional observations from a re-analysis of the deposited data

Results flagged for a closer look

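The effect of Atf4 deletion differed between soleus and glycolytic muscle for 3163 genes (interaction, edgeR, adjusted p below 0.05). Among the genes whose difference is given above, the effect in the soleus was more negative for Gdf15 (-3.84), Hmox1 (-3.81), Snhg15 (-2.67), Ccn2 (-2.63), Lgals3 (-2.33), Mthfd2 (-1.92), Ppp1r15a (-1.89), Atf3 (-1.77), Ifrd1 (-1.75), Asns (-1.59) and Hspa9 (-1.55 log2 units). It was more positive for Tgfbr3 (1.21), Pde2a (0.92), Gbp2 (0.84), Igtp (0.83), Ifit3 (0.81), Tram1 (0.68), Psmb10 (0.62) and Psmb8 (0.58 log2 units). ECKO libraries of the glycolytic muscle and ECKO soleus libraries 1 to 3 also differed in sex-linked RNA, and its part in these differences was not tested.

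One library stood apart from the other 4 of its group in 11 of 328 groups checked with Dixon's criterion for 5 samples (0.71), and chance alone flags about 1 in 20 groups. In wild type soleus these were Mthfd2 in library 3 (156 CPM), Cebpg in library 4 (87.5 CPM), Chac1 in library 1 (46.6 CPM) and Eif2ak2 in library 2 (12.6 CPM). In ECKO soleus they were Abca1 in library 2 (93.0 CPM), Gars in library 4 (82.6 CPM), Hk2 in library 4 (1.27 CPM), Pfkl in library 1 (91.0 CPM), Slc38a4 in library 2 (3.43 CPM), the summed pan-endothelial markers in library 1 (14340.4 CPM) and the summed pericyte and smooth muscle markers in library 5 (1319 CPM).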

How the results depend on the processing

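The calls and directions of the report were compared over 20 alternative fits. Of 3058 values for the 153 genes named, 2901 kept their direction and side of the threshold, 144 kept the direction and lost the call (56 of them with the myeloid level as a covariate), and 13 changed sign, all 13 with the myeloid level as a covariate: Adam8 (0.23), Adm (0.03), Alas1 (-0.06), Castor1 (-0.06), Cgnl1 (0.41), Iars2 (-0.08), Id1 (-0.31), Klf6 (-0.54, adjusted p = 0.044, the only one of them called), Lyz2 (0.59), Mki67 (8.19), Mmp15 (0.05), Pfkl (-0.28) and Per2 (-1.06). That fit left 709 genes called higher, 895 called lower and 1564 interaction calls. Of its calls 880 were among the 4470 of the report, 802 of these in the same direction. Of the named genes 84 kept direction and side of the threshold in it. Genes that lost their call there included Ifit1, Igtp, Gbp2, Psmb8, Psmb10, Slc7a5, Gpt2, Got1, Vldlr, Tnfsf18, Il6, Ptgs2, Hspa1a and Sesn2. The myeloid level did not overlap between genotypes, and the cause was not tested. The other fits gave 3710 (transcript length offset) to 4559 (limma-voom) calls, 4535 with DESeq2, and leaving out single libraries gave 4058 to 4353. Library numbers did not pair the genotypes (correlations of same-numbered deviations from -0.006 to 0.087). With the replicate block 4332 genes were called, 4258 of them shared, and of the named genes Slc43a1 (adjusted p = 0.051) and Blvra (adjusted p = 0.05) lost their calls. Library depth limits genes near 1 CPM: Cbs, Vegfa and Slc38a4 rest on few counts.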
